A study of Mus musculus with 6 samples.

Results

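CaMKII, the calcium/calmodulin-dependent protein kinase II of the synapse, its scaffold neighbours the SAPAP proteins and the adaptor IRSp53 were followed through 9 genes in mouse prefrontal cortex. The genes were Camk2a, Camk2b, Camk2d and Camk2g for the kinase, Dlgap1, Dlgap2, Dlgap3 and Dlgap4 for the SAPAP family, and Baiap2 for IRSp53. They were chosen by name, as the rows whose Ensembl identifier maps to these symbols in GENCODE M21. All 9 were among the 17889 rows of the deposited table and among the 14969 rows tested. The samples were 3 samples titled Hetero with the genotype Cyfip2 mutant and 3 wild-type (WT) samples, all from C57BL/6J mice at postnatal day 28, sequenced from poly(A) RNA with a stranded kit. The labels give neither the form of the Cyfip2 allele nor whether a sample is a single animal. The p-values thus set group differences against the spread among these samples. Part of that spread may be technical, so they may not extend to animals.

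CaMKII is a ring of many subunits that binds calmodulin when calcium enters the spine, phosphorylates itself and then stays active after the calcium has gone. Its alpha and beta subunits, from Camk2a and Camk2b, are the forebrain neuronal forms, and the beta subunit also binds and bundles actin filaments. The SAPAP proteins, also called GKAP, bridge PSD-95 and the Shank scaffold in the postsynaptic density. IRSp53 carries a membrane-bending I-BAR domain and binds Rac, Cdc42 and the WAVE complex, of which the Cyfip2 protein is a subunit. Camk2a messenger RNA is transported into dendrites and is a known target of the fragile X protein FMRP, to which CYFIP proteins bind.

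Short coding stretches are shown because they mark the function of each family and show how far the paralogs differ in the bases that reads come from. For CaMKII the stretch surrounds the codon of the threonine whose autophosphorylation keeps the kinase active, residue 287 in each of the 3 transcripts shown, and the codon is in capitals. They are written 5′ to 3′ from the GENCODE M21 transcripts (GRCm38), from exon 11 in each, at chr11:5988967-5989029 (minus strand) for Camk2b, chr3:126797711-126797773 (plus strand) for Camk2d and chr14:20760409-20760471 (minus strand) for Camk2g.
Camk2b: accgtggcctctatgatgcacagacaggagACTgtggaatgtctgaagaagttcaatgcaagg
Camk2d: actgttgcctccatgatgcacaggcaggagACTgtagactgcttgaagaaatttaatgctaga
Camk2g: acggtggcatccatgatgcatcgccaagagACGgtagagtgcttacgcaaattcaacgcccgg

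Over these 63 bases Camk2b and Camk2d differed at 12 positions, Camk2b and Camk2g at 20, and Camk2d and Camk2g at 18. Over whole coding sequences the CaMKII paralogs were 76.4% to 79.3% identical in aligned bases.

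For the SAPAP genes the stretch is the end of the coding sequence, where the last 4 codons before the stop, in capitals, encode the tail that binds the PDZ domain of Shank. They lie on the plus strand at chr17:70818190-70818231 for Dlgap1, chr8:14846664-14846705 for Dlgap2, chr4:127236324-127236365 for Dlgap3 and chr2:156762859-156762900 for Dlgap4.
Dlgap1: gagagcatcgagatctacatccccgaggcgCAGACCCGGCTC
Dlgap2: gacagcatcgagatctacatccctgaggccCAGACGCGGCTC
Dlgap3: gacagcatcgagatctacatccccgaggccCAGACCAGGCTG
Dlgap4: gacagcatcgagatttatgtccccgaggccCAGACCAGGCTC

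These 42-base tails differed at 4 to 6 positions between any pair, while the whole SAPAP coding sequences were 62.2% to 66.2% identical in aligned bases. Runs of 31 bases shared with a transcript of any other gene made up from 0% of the runs of Camk2g, Dlgap2, Dlgap4 and Baiap2 to 0.79% of those of Camk2a, and 8 of the 7473 runs of Camk2a also occurred in another of the 9 genes.

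Cyfip2 itself had normalized counts of 20959, 21237 and 18285 in Hetero and 31933, 30496 and 27503 in WT, so the groups did not overlap, and the level went with the labels. The libraries were estimated to hold 25500000 to 43900000 assigned reads, with the largest estimate, also the least certain, in Hetero sample 3. Hetero sample 3 also stood furthest from its group, with a median absolute log2 difference of 0.14 from the mean of the other Hetero samples, against 0.09 to 0.11 for the other 5 libraries. Its shift followed base composition: relative to the other Hetero samples the median log2 difference was 0.10 over genes with a GC content of at least 55.1%, and -0.10 over genes with at most 45.5%. Defining markers of cortical excitatory neurons, inhibitory neurons and glia were all present above 0. The 4 liver and muscle markers read beside them summed to 367.1 to 486.9 normalized counts in Hetero, highest in Hetero sample 3, and 362.8 to 430.8 in WT. Of these only the muscle actin gene Acta1 reached a mean of 10, and the lowest, Alb, averaged 0.84.

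Levels of different genes were compared as normalized counts per kilobase of the longest protein-coding transcript. Whether the values had already been adjusted gene by gene for transcript length is not given in the sources used here, and the levels and shares per length assume that they had not. Camk2a stood far above the rest with 24778 ± 1232 per kilobase (SD over 6 libraries). Camk2b followed with 6102 ± 153 per kilobase and Dlgap3 with 3249 ± 168 per kilobase. With this length these genes did not overlap in range with their neighbours in the order. The order below Camk2a depends on the length used. Camk2b, for example, has 4023 bases here and 9125 with all exons merged. Camk2g has 3703 bases here and 822 as the median of its protein-coding transcripts. Camk2g (2226 to 2435 per kilobase) and Baiap2 (1896 to 2314) overlapped, as did Baiap2 and Dlgap1 (1751 to 2051), and Dlgap1 and Dlgap4 (1772 to 1875). Dlgap2 (517 to 726 per kilobase) and Camk2d (324 to 396) were the lowest and overlapped with no other gene of the group.

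Within the CaMKII family, Camk2a thus made up 73.8% ± 1.12 of the length-scaled sum (SD over 6 libraries), Camk2b 18.2% ± 0.79, Camk2g 6.94% ± 0.43 and Camk2d 1.11% ± 0.07. The Camk2d and Camk2g genes encode the delta and gamma subunits, which are also widespread outside the brain. Under the other length choices Camk2a kept the largest share and Camk2d the smallest.

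**Figure D1:**
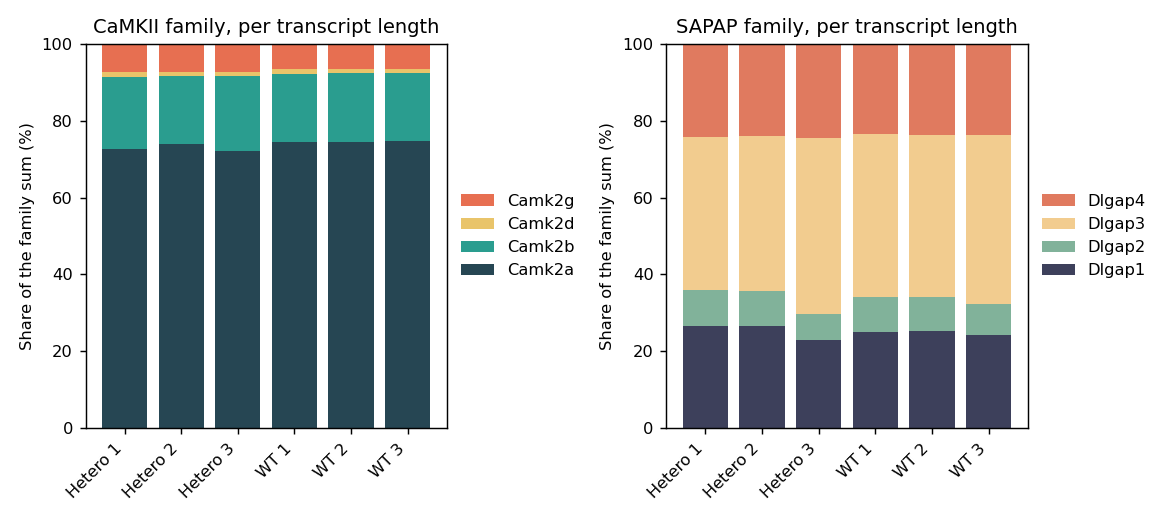
Share of each paralog (y axis, %) in the CaMKII sum (left) and the SAPAP sum (right) per library (x axis, Hetero left of WT), with normalized counts divided by transcript length. Camk2a holds between 72.1% and 74.9% in all libraries, and the Dlgap3 share is highest in Hetero sample 3 (45.6%).

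Within the SAPAP family Dlgap3 made up 42.4% ± 2.15 of the length-scaled sum (SD over 6 libraries), Dlgap1 25.1% ± 1.38, Dlgap4 23.9% ± 0.42 and Dlgap2 8.53% ± 0.97. Dlgap3 is best known from mice that lack it, which groom compulsively and have altered corticostriatal synapses. The order rested on the transcript length assumed: with all exons merged Dlgap3 held 56.8%, with the median length of protein-coding transcripts Dlgap4 held 41.7% and Dlgap3 24.9%, and without division by length Dlgap1 (35.1%) and Dlgap3 (34.8%) were nearly level. The deposited gene values do not show which transcripts were present.

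The CaMKII sum was 32733, 33460 and 31862 per kilobase in the Hetero samples and 33626, 35103 and 34682 in the WT samples. The SAPAP sum was 7716, 7572 and 7612 per kilobase in the Hetero samples and 7838, 7500 and 7691 in the WT samples. The kinase sums did not overlap between the groups, by a margin of less than the spread within each, while the scaffold sums did overlap. Camk2a made up 73.8% of the kinase sum, so the separation largely repeats its counts. The counts of Camk2b and Camk2d overlapped, and those of Camk2g were higher in Hetero. Among single tested genes 4.32% had every Hetero value below every WT value.

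The comparison of genotypes asked whether these postsynaptic transcripts differ when Cyfip2 is mutated. None of the 9 genes passed: in limma with Benjamini-Hochberg adjustment over 14969 genes the adjusted p was 1, after rounding, for each. The background was 0% called higher and 0% called lower in Hetero over all tested genes, so the members' count equals it. Cyfip2 itself was not called either, with a limma adjusted p of 0.312, the smallest over all tested genes. The lack of calls thus does not show a lack of change. At an unadjusted p under 0.05 there was 1 member, Camk2a, on the lower side, where 2.17% of all tested genes lay. By fitted value 6 members were lower and 3 were higher in Hetero, and their median log2 change was -0.04 where that of all tested genes was -0.002. The 95% intervals of all 9 members lay within 1.5-fold in both directions. For the 8 members other than Dlgap2, the bounds of the Hetero to WT ratio lay between 0.845 and 1.14, and for Dlgap2 they were 0.786 and 1.15.

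**Figure D2:**
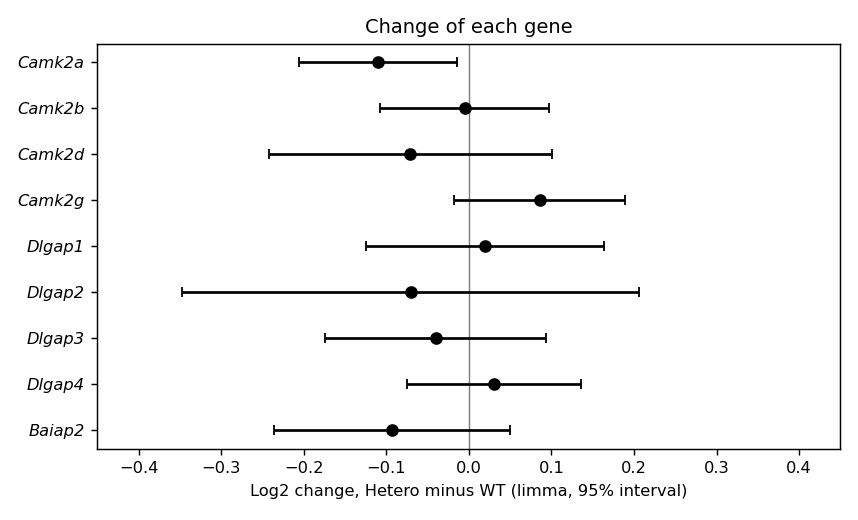
Log2 change, Hetero minus WT (x axis, points), with its 95% interval from limma (bars) for each of the 9 genes (y axis). The interval of Camk2a ends at -0.01 on its upper side, that of Dlgap2 is the widest, and the intervals of the 8 genes other than Camk2a include 0.

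Camk2a (ENSMUSG00000024617, chromosome 18, 60925618 to 60988152, plus strand, GRCm38) encodes the alpha subunit, the most abundant kinase subunit of the forebrain postsynaptic density. It had 118243, 123010 and 114153 normalized counts in Hetero samples 1 to 3, against 124521, 129923 and 129043 in WT samples 1 to 3. Every Hetero value lay below every WT value, by a narrow gap between Hetero sample 2 and WT sample 1. In limma the log2 change was -0.11 ± 0.04 (SE), so Hetero stood at 0.927 times WT (95% interval 0.867 to 0.99). It was -0.08 without Hetero sample 3 and -0.10 after GC and length trends had been removed.

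Summed markers of cortical excitatory neurons (Slc17a7, Neurod6, Tbr1 and Neurod2), the cells in which Camk2a is mainly transcribed, were 58782 to 62308 in Hetero and 62497 to 65969 in WT, also without overlap, although 2 of the 4 had a higher fitted value and 2 a lower one. Their part in the Camk2a difference was not tested. In these bulk samples fewer cells of a type and less RNA per cell cannot be told apart.

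Camk2b (ENSMUSG00000057897, chromosome 11, 5969644 to 6066362, minus strand) encodes the actin-binding beta subunit. Its values were 24829, 23716 and 24970 in Hetero and 23933, 25299 and 24554 in WT. The groups lay on top of each other, with a log2 change of -0.005 ± 0.05 (SE) and a ratio interval of 0.928 to 1.07. The length-scaled ratio of Camk2a to Camk2b, a measure of how alpha-rich the kinase message is, was 3.85, 4.2 and 3.7 in the Hetero samples and 4.21, 4.16 and 4.25 in the WT samples. Hetero sample 2 fell among the WT values, and the other Hetero samples fell below them.

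Camk2g (ENSMUSG00000021820, chromosome 14, 20734875 to 20794088, minus strand) encodes the gamma subunit, which in neurons is known to carry calmodulin toward the nucleus. It had 8832, 9016 and 8752 normalized counts in Hetero samples, against 8243, 8524 and 8296 in WT samples. All Hetero values lay above all WT values, with means of 8866 ± 136 in Hetero and 8355 ± 149 in WT (SD, n = 3 each). In limma the log2 change was 0.09 ± 0.05 (SE) and kept a value of 0.07 to 0.10 when any 1 sample was left out. Over all tested genes 4.40% had every Hetero value above every WT value and 4.32% had every Hetero value below every WT value. Among the 9 members there was 1 of each kind, Camk2g and Camk2a.

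Camk2d (ENSMUSG00000053819, chromosome 3, 126596302 to 126846326, plus strand) encodes the delta subunit, the main form in heart. It had 2129, 2100 and 1788 normalized counts in Hetero and 2188, 2048 and 2067 in WT. Only Hetero sample 3 lay outside the WT range. The log2 change was -0.07 ± 0.08 (SE) with that sample and 0.01 without it.

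**Figure D3:**
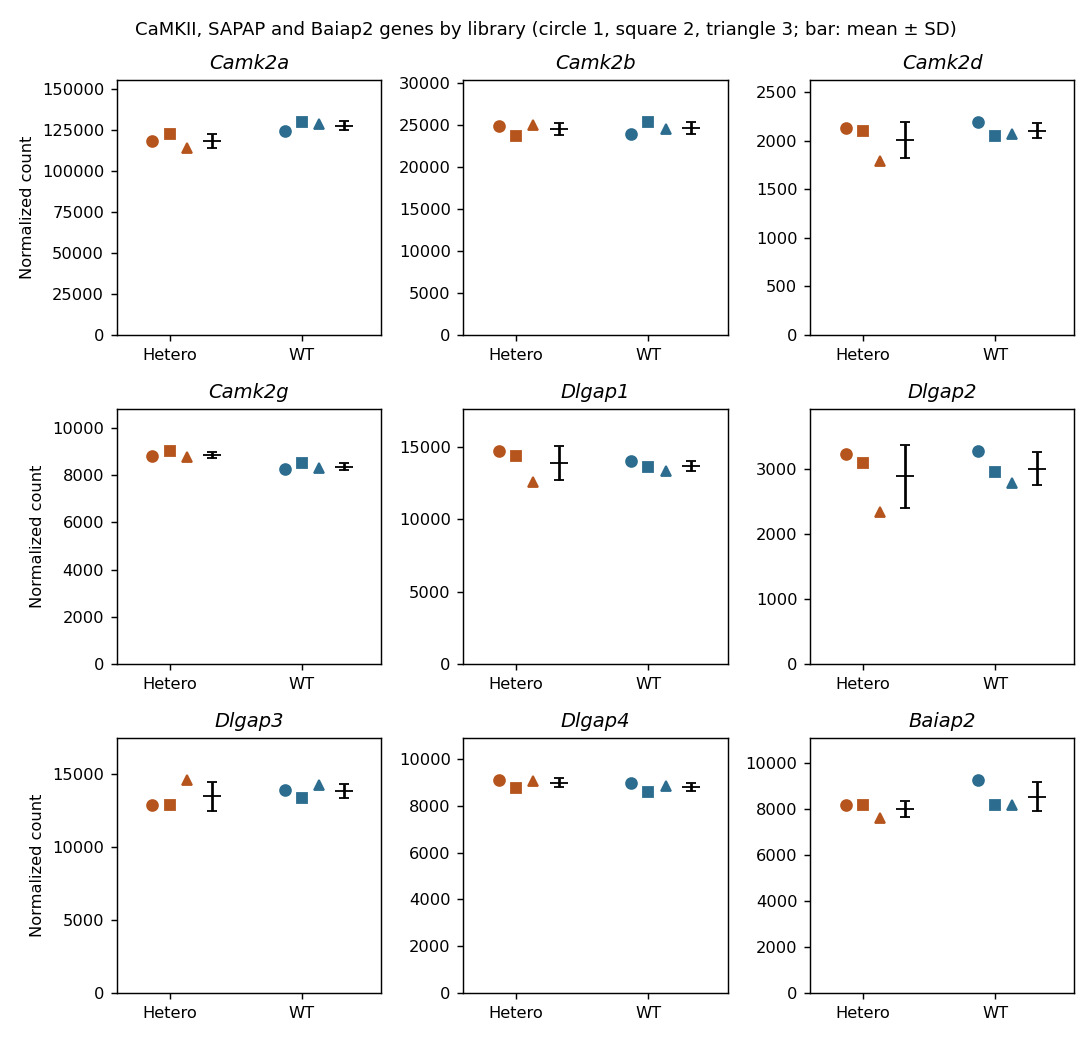
Normalized counts (y axis, from 0) of the 9 genes in Hetero (left in each panel) and WT (right); each point is a library, with its sample number by symbol, and the bar is the mean ± SD. The Camk2a values of Hetero (114153 to 123010) lie below those of WT (124521 to 129923), the Camk2g values of Hetero (8752 to 9016) lie above those of WT (8243 to 8524), and the other genes overlap.

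As shares of their family, Camk2a, Camk2g and Dlgap4 had groups that did not overlap, among 8 paralogs. The Camk2a share was 72.9% ± 0.96 in Hetero and 74.6% ± 0.22 in WT (SD, n = 3 each), a difference of -1.70 percentage points. The Camk2g share was 7.33% ± 0.08 in Hetero and 6.55% ± 0.08 in WT (SD, n = 3 each), a difference of 0.78 points. The Dlgap4 share was 24.2% ± 0.37 in Hetero and 23.6% ± 0.06 in WT (SD, n = 3 each), a difference of 0.63 points. For each of these an exact two-sided permutation test returned p = 0.1, which is the smallest value possible with 3 samples a group, and an adjusted p of 0.267 over the 8 shares compared. The Dlgap4 shares did overlap with the median transcript length and without division by length (exact permutation p = 0.2 for each), while those of Camk2a and Camk2g stayed apart under every length tried. No share over all genes can be set beside this count, since such shares were computed for these 2 families alone. Shares of 1 family sum to a fixed total, so they are not independent. The Camk2b share was 18.6% ± 0.95 in Hetero and 17.7% ± 0.16 in WT (exact permutation p = 0.3, n = 3 each), and the Camk2d share was 1.11% in Hetero and 1.10% in WT.

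No SAPAP gene had counts that separated the groups. Dlgap1 (ENSMUSG00000003279, chromosome 17, 69969073 to 70821413, plus strand) encodes GKAP, the founding member that binds PSD-95. It had 14709, 14409 and 12557 normalized counts in Hetero samples 1 to 3, against 14027, 13610 and 13367 in WT samples 1 to 3. Hetero sample 3 was below the WT range and the other Hetero samples were above it. The log2 change was 0.02 ± 0.06 (SE), and 0.09 without Hetero sample 3 (limma adjusted p = 0.929).

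Dlgap2 (ENSMUSG00000047495, chromosome 8, 14095865 to 14847680, plus strand) encodes a further SAPAP bridge between PSD-95 and Shank. It had 3223, 3093 and 2329 normalized counts in Hetero samples and 3269, 2955 and 2780 in WT samples. Hetero sample 3 was again the low value, and the others lay within the WT range. Its highest value was 1.40 times its lowest, the widest span of the 9 genes. The log2 change of -0.07 ± 0.12 (SE) turned to 0.08 without Hetero sample 3.

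Dlgap3 (ENSMUSG00000042388, chromosome 4, 127169204 to 127237022, plus strand) went the other way in that library. Its counts were 12932, 12918 and 14608 in Hetero and 13926, 13353 and 14264 in WT. Hetero sample 3 lay above every WT value and the other Hetero samples below every WT value. The log2 change was -0.04 ± 0.06 (SE) over all samples and -0.10 without Hetero sample 3 (limma adjusted p = 0.929). Dlgap3 is strongly transcribed in striatum, so markers of striatal neurons were read beside it. Their sum was 4461 to 4750 in Hetero, highest in Hetero sample 3, and 4099 to 4553 in WT, overlapping. By fitted value 2 of these 6 markers were higher and 4 lower in Hetero. Their part in the Dlgap3 values was not tested.

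Dlgap4 (ENSMUSG00000061689, chromosome 2, 156613705 to 156764363, plus strand), which encodes SAPAP4, was the steadiest of the 9 genes. It had 9097, 8761 and 9079 normalized counts in Hetero and 8954, 8597 and 8828 in WT. The groups overlapped, and the log2 change was 0.03 ± 0.05 (SE), with a ratio interval of 0.949 to 1.10. The SD of its log2 values over the 6 libraries was 0.03, against a median of 0.12 over all tested genes.

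Baiap2 (ENSMUSG00000025372, chromosome 11, 119942763 to 120006782, plus strand), the gene of IRSp53, had 8189, 8200 and 7595 normalized counts in Hetero and 9266, 8184 and 8160 in WT. WT sample 1 was the high value and Hetero sample 3 the low one, while the other 4 libraries lay between 8160 and 8200. The log2 change was -0.09 ± 0.06 (SE), -0.03 without WT sample 1 and -0.06 without Hetero sample 3.

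**Figure D4:**
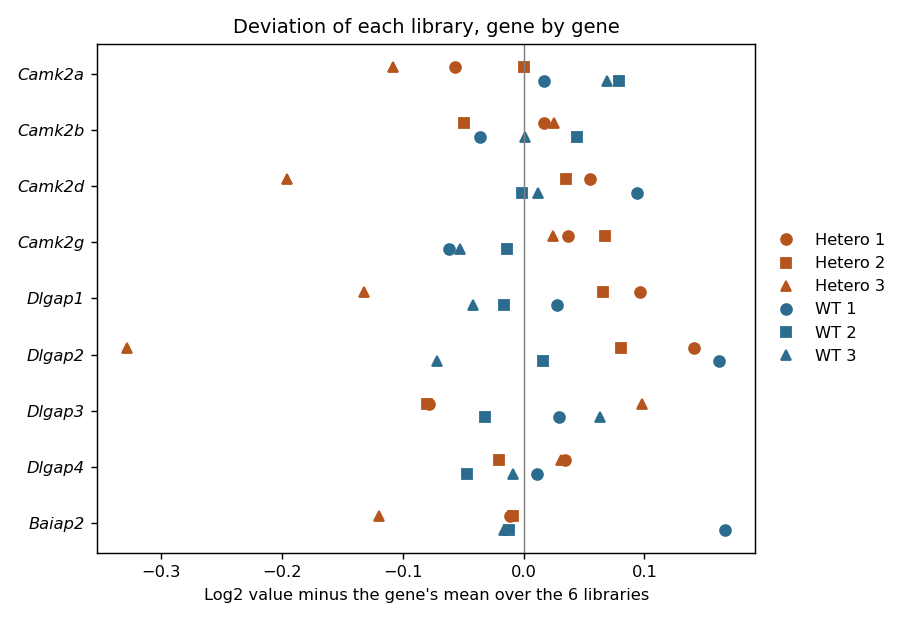
Deviation of each library from the mean of that gene, in log2 units (x axis), for the 9 genes (y axis); colours mark Hetero and WT and symbols the sample number. Hetero sample 3 is the lowest library for Camk2a, Camk2d, Dlgap1, Dlgap2 and Baiap2 and the highest for Dlgap3.

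The members differed in where Hetero sample 3 stood. Relative to the mean of the other Hetero samples, its log2 difference was -0.44 for Dlgap2, -0.24 for Camk2d, -0.21 for Dlgap1, -0.11 for Baiap2 and -0.08 for Camk2a. It was 0.18 for Dlgap3 and within 0.05 for Camk2b, Camk2g and Dlgap4. Dlgap3 has the highest GC content of the 9 transcripts (63.9%) and Camk2d the lowest (43.9%), while Dlgap2, with the deepest drop, has 55.3%. Dlgap4 has 59.4%, Baiap2 57.7%, Camk2b 56.3%, Camk2a 53.3%, Camk2g 51.8% and Dlgap1 50.9%. The order of GC content was thus not the order of the differences, with Baiap2 lower in Hetero sample 3 despite its GC content. After GC and length trends had been removed from each library, the log2 changes of the 9 genes lay between -0.10 and 0.09, against -0.11 and 0.09 before. These are changes between the groups and do not give the deviation of Hetero sample 3. WT sample 3, set against the other WT samples, had the same sign for Dlgap2 (-0.16), Dlgap3 (0.06), Dlgap1 (-0.05), Camk2d (-0.03) and Baiap2 (-0.09), and a value of 0.02 for Camk2a. For Baiap2 and Camk2d that sign rested mainly on a high WT sample 1. WT samples 1 to 3 had 9266, 8184 and 8160 normalized counts of Baiap2 and 2188, 2048 and 2067 of Camk2d. The length-scaled ratio of Dlgap1 to Dlgap3 was 0.67, 0.65 and 0.50 in Hetero samples 1 to 3 and 0.59, 0.60 and 0.55 in WT samples 1 to 3, lowest in the third sample of each group.

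Likeness of profile was measured as the root mean square difference of centred log2 values over the 6 libraries, among 12016 protein-coding genes with a mean of at least 100. Nearest to Camk2a were Shank3 (0.011), Arrb1 (0.017) and Hinfp (0.017), where the median over genes was 0.11. Nearest to Dlgap3 were Dhrs7b (0.010), Prdx1 (0.017) and Kat5 (0.019), and nearest to Baiap2 were Ubxn7 (0.015), Zfp62 (0.023) and Mmd (0.023). Shank3, which binds the SAPAP tail shown above, had 9839, 10436 and 9650 normalized counts in Hetero and 10536, 10813 and 10896 in WT. Its groups did not overlap, and its Hetero libraries stood in the same order as those of Camk2a. Both largely follow from its choice as the nearest of 12016 profiles, so they are no further observation. Among the members, the closest pair was Camk2b with Dlgap4 (0.04) and the most distant was Dlgap2 with Dlgap3 (0.22).

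The other genes of these pathways were read from 3 lists, with 0 genes called higher and 0 called lower in Hetero in any of them. In each list 1 gene had groups that did not overlap: Camk2n2, Shank3 and Mtss1. Over all tested genes 4.40% had every Hetero value above every WT value and 4.32% had every Hetero value below, so such separation was common. Of the 27 tested regulators, docking proteins and relatives of CaMKII, 14 were higher and 13 lower by fitted value, and the median log2 change was 0.001. At an unadjusted p under 0.05 there was 1 gene, Camk2n2, where 3.83% of all tested genes lay. Camk2n2 encodes an endogenous inhibitor protein of CaMKII. It had 2496, 2619 and 2928 normalized counts in Hetero and 2156, 2195 and 2440 in WT. All Hetero values lay above all WT values, the nearest being Hetero sample 1 and WT sample 3. In limma the log2 change was 0.24 ± 0.08 (SE). Without Hetero sample 3 it was 0.18.

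Ppp3ca, the catalytic subunit of calcineurin, a calcium-dependent phosphatase, differed by a log2 change of 0.11 ± 0.05 (SE). Pcp4, a small calmodulin-binding protein, had -0.10 ± 0.08 (SE), which ranged from -0.18 to -0.04 when 1 sample at a time was left out. The other inhibitor gene, Camk2n1, named here after its value was seen, had a log2 change of -0.006.

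Of the 15 tested partners and relatives of the SAPAP proteins, 3 had a higher and 12 a lower fitted value, with a median of -0.05, and none had an unadjusted p under 0.05. The smallest p values on the lower side belonged to Shank3 (-0.11 ± 0.05, SE) and Dlg2, the PSD-93 scaffold gene (-0.16 ± 0.09, SE). On the higher side stood Dlg3, the SAP102 scaffold gene (0.05 ± 0.05, SE), and Lrfn2, a synaptic adhesion gene (0.02 ± 0.08, SE). Dlg2 had 11221, 11787 and 9201 normalized counts in Hetero and 11874, 11372 and 12495 in WT, and its low value was again Hetero sample 3. Its log2 change was -0.05 without that library and -0.015 without the third sample of both groups.

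Of the 14 tested binding partners and I-BAR relatives of Baiap2, 3 had a higher and 11 a lower fitted value, with a median of -0.09. At an unadjusted p under 0.05 there were 2, Mtss1 and Mtss1l, both I-BAR genes related to Baiap2 and both lower in Hetero, where 2.17% of all tested genes were lower and 3.83% passed in either direction. Mtss1 had 769, 730 and 770 normalized counts in Hetero and 826, 858 and 853 in WT, without overlap, a log2 change of -0.16 ± 0.07 (SE). Mtss1l had 6133, 6478 and 6906 in Hetero and 7070, 6793 and 8000 in WT, where 1 Hetero value lay inside the WT range, a log2 change of -0.16 ± 0.07 (SE) that was -0.09 without WT sample 3. The GTPase genes Cdc42 (0.04 ± 0.05, SE) and Rac3 (0.01 ± 0.10, SE) had the smallest p on the higher side.

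**Figure D5:**
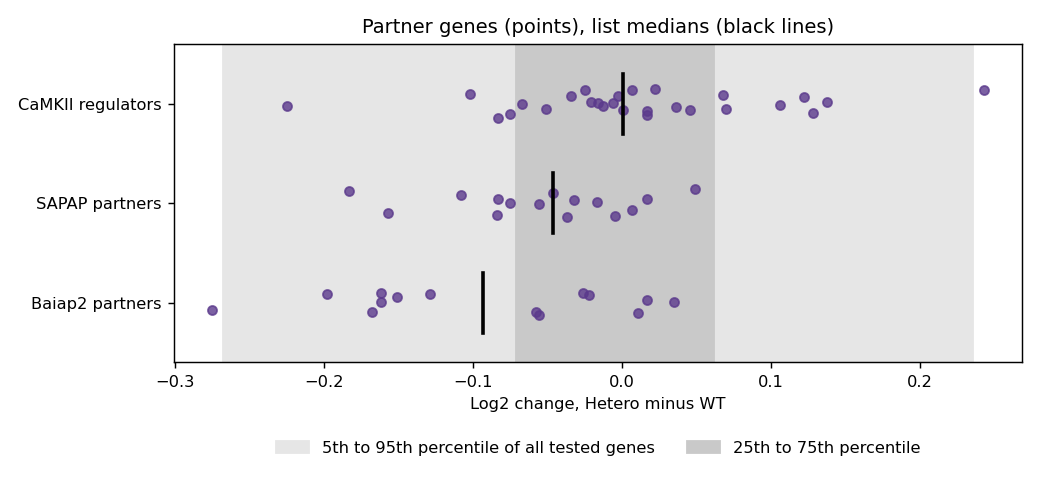
Log2 change, Hetero minus WT (x axis), of the tested genes of the 3 partner lists (points) with the list medians (black lines), over bands that hold the 25th to 75th and the 5th to 95th percentile of all tested genes. The medians are 0.001, -0.05 and -0.09 from top to bottom, and all 3 lists lie mostly inside the wide band, which runs from -0.27 to 0.24.

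Markers of other cell types in the tissue moved as follows. Summed markers of oligodendrocyte precursors were 5183 to 5746 in Hetero and 6193 to 7085 in WT, with 4 of 4 lower in fitted value. Microglia markers summed to 6962 to 7577 in Hetero and 7347 to 8084 in WT, overlapping, with 5 of 5 lower. Inhibitory neuron markers summed to 21040 to 22231 in Hetero and 19677 to 21422 in WT, overlapping, with 5 of 6 higher. Markers of meninges and fibroblasts summed to 1343 to 1680 in Hetero and 974.4 to 1616 in WT, overlapping, with 4 of 4 higher. Astrocyte, mature oligodendrocyte and endothelial sums also overlapped between the groups, with 2 of 5, 1 of 5 and 1 of 4 markers higher and the others lower, and 0 markers of any of these lists were at 0 in every library. Their part in the values of the 9 genes was not tested.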

How the data were processed

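RNA was sequenced from 6 prefrontal cortex samples, grouped by their titles. The deposited table holds normalized counts, treated as a signal, since they are not whole. Its columns, as deposited, have totals between 29879143 and 30735443. Per the submitters' processing notes, GRCm38, DESeq2 1.19.11, Salmon 0.11.2 and R 3.6.0 were used, without their roles; annotation and scaling formula: not given in the sources used here. Of the values under 60, 15.5% to 28.1% were whole multiples (tolerance 0.02) of the best step found in each library, so whole reads were not recovered and no count test was run. Dividing each column total by its step estimated the reads. The lowest percentage, 15.5%, was that of Hetero sample 3, so its estimate rests on the weakest step.

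Identifiers were matched to GENCODE M21, with 17875 found. Values were taken as log2(value + 1) for genes with a mean of at least 10. Hetero was compared with WT in limma 3.58.1 (R 4.3.3) with trend and robust fitting, two-sided. Benjamini-Hochberg adjustment ran over 14969 genes, with a threshold of 0.05. The code of the fit was checked on simulated data. These had larger changes than those of the members and the same spread for every gene, so sensitivity to small changes was not tested. Shares used values divided by the length of the longest protein-coding transcript, on the assumption that they carried no earlier adjustment for length, and exact permutation tests (scipy 1.17.1). Coding sequences were aligned with Biopython 1.88.

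The members and lists were chosen with earlier results of these data known. All 9 members are named, with the 2 genes of smallest p in each direction of each list, the 3 nearest profiles of 3 members, and Cyfip2. Marker lists are described by sums. Of these names, 1 list gene and 1 marker are not reported here, and the marker is left out of its sum. Alternatives were TMM rescaling, median centring, other filters and pseudocounts (0.5 and 8), limma without trend and robust fitting, a replicate block, removal of GC and length trends (splines with 4 degrees of freedom), leaving out samples, and other lengths for the shares.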

Additional observations from a re-analysis of the deposited data

How the results depend on the processing

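In each of the 16 other fits 0 of the 9 members and 0 partner genes were called, and Camk2a, Camk2g, Dlgap3, Dlgap4 and Baiap2 kept their direction. Without the third sample of both groups the log2 change of Dlgap2 was 0.022 and that of Rac3 -0.077, against -0.07 and 0.01 with all samples. When 1 sample at a time was left out, the log2 change ranged from -0.025 to 0.018 for Camk2b, from -0.116 to 0.010 for Camk2d, from -0.023 to 0.091 for Dlgap1, from -0.158 to 0.076 for Dlgap2, from -0.015 to 0.054 for Lrfn2 and from -0.091 to 0.101 for Rac3. With the direction kept it ranged from -0.124 to -0.033 for Baiap2, from -0.099 to -0.010 for Dlgap3, from 0.014 to 0.048 for Dlgap4, from -0.229 to -0.050 for Dlg2, from 0.030 to 0.079 for Dlg3, from 0.020 to 0.057 for Cdc42, from -0.211 to -0.093 for Mtss1l and from -0.180 to -0.042 for Pcp4. In the same way the difference in share, Hetero minus WT in percentage points, ranged from -0.028 to 0.052 for Camk2d, from -0.062 to 1.73 for Dlgap1, from -0.75 to 0.49 for Dlgap2 and from -2.68 to 0.21 for Dlgap3.

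The mean shares over the 6 libraries depend on the length used, by construction. With all exons merged they were 80.0% for Camk2a, 13.1% for Camk2b, 0.44% for Camk2d, 14.5% for Dlgap1, 56.8% for Dlgap3 and 19.8% for Dlgap4. With the median length of protein-coding transcripts they were 79.2% for Camk2a, 11.2% for Camk2b, 0.44% for Camk2d, 9.16% for Camk2g, 27.8% for Dlgap1, 5.59% for Dlgap2, 24.9% for Dlgap3 and 41.7% for Dlgap4. Without division by length they were 77.7% for Camk2a, 15.5% for Camk2b, 1.30% for Camk2d, 5.45% for Camk2g, 35.1% for Dlgap1, 7.48% for Dlgap2, 34.8% for Dlgap3 and 22.6% for Dlgap4.

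Same-numbered samples of the groups deviated together only in the third (correlations across genes of -0.005, 0.004 and 0.227), so the numbers were not taken as pairs. With the replicate block 0 members were called, and Camk2a had a log2 change of -0.11 with a limma adjusted p of 0.81. The lowest normalized count of the 9 genes was 1788, and the effect of depth on the calls was not tested.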
